A study of Mus musculus with 12 samples.

Results

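The constitutive proteasome subunits are described here from bulk RNA-seq of mouse retina. They were chosen by symbol alone, as Psma, Psmb, Psmc, Psmd or Psme followed by a number, with the immunoproteasome subunits Psmb8, Psmb9 and Psmb10 left out. This gave 40 of the 25124 genes in each of 2 FPKM tables, namely 8 subunits of the 20S alpha ring, 8 of the 20S beta ring, 6 ATPases of the 19S cap, 14 non-ATPase subunits and assembly chaperones of that cap, and 4 activators. Of the 40, 38 had a mean of at least 0.5 FPKM in each table and were tested.

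All 12 libraries came from wild-type (WT) mice, and the study used the C57BL/6J strain. In the single-IOP series, retinas of 3-month-old and 18-month-old mice were collected 2 days after intraocular pressure (IOP) had been raised in one eye to 30 mmHg for 1 h. Each age has a control and an IOP group of 2 libraries (called 3mo and 18mo here). In the repeated-IOP series the animals were 3 months old at the start and had 4 such elevations, every 2 weeks, with collection 2 days after the last (4xIOP and 4xIOP control, 2 libraries each). The controls are the untreated contralateral eyes, so a control retina comes from an animal whose other eye was stressed. Which control and treated libraries share an animal is not stated, so the libraries were not paired. The p-values below rest only on the spread between the 2 libraries of each group, pooled over the groups of a series. The fit also draws on the spread of other genes. Libraries held between 39766244 and 59455066 tags, of which 44.2% to 71.5% lay in exons. The tissue label was checked against its markers: the summed level of 10 rod photoreceptor genes was between 14429 and 31214 FPKM in the single-IOP series and between 6057 and 13537 FPKM in the other, and none of these genes was at 0 in all libraries.

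The proteasome degrades proteins that have been tagged with ubiquitin. Its core particle is a stack of alpha rings, which gate the entry of substrates, around beta rings, which hold the catalytic sites, and its cap recognises, unfolds and feeds in the substrate. Neurons rely on it for protein quality control, and cells that meet interferon replace the catalytic beta subunits by the immunoproteasome subunits.

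Promoter sequences are given for 6 genes on which the results below turn. These are Psma5, the core subunit with the largest age difference, the catalytic subunits Psmb5 and Psmb6, the ATPase Psmc6, and the activators Psme1 and Psme2. Each runs 5′ to 3′ from 175 bases before the transcript start, through 25 bases from the start on, in RefSeq on build GRCm38.p6, which is the assembly of the tables (mm10). The stretches are chr3:108256751-108256950 on the plus strand for Psma5, chr14:54617971-54618170 on the minus strand for Psmb5, chr11:70525182-70525381 on the plus strand for Psmb6, chr14:45329649-45329848 on the plus strand for Psmc6, chr14:55578319-55578518 on the plus strand for Psme1 and chr14:55591077-55591276 on the minus strand for Psme2. Capitals mark matches to 4 motifs.
Psma5: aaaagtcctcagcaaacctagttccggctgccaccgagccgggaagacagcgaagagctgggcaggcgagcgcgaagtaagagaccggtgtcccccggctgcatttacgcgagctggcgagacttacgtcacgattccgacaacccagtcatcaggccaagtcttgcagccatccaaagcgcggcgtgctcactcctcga
Psmb5: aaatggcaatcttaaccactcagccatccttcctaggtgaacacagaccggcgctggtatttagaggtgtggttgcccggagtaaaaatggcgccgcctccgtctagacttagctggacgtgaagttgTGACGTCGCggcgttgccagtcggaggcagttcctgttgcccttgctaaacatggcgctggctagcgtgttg
Psmb6: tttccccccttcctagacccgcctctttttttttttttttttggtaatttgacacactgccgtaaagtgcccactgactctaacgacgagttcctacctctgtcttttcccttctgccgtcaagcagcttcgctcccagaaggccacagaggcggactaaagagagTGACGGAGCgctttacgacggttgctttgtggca
Psmc6: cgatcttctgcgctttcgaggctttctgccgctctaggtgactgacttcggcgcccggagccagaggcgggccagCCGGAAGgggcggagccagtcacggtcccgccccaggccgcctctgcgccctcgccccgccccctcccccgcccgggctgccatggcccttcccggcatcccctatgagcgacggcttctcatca
Psme1: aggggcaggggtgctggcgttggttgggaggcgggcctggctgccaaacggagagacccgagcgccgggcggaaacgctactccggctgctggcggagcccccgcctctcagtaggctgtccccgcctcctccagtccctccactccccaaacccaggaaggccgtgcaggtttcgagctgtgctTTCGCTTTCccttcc
Psme2: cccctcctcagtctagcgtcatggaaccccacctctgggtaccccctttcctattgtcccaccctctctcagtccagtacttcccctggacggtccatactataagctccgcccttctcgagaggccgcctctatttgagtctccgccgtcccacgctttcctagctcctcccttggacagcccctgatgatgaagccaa

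The motifs were searched on both strands over the whole 300 bases of the RefSeq window, in which 32 of the 40 members and all 3 immunoproteasome subunits had a promoter at the start of the tables' transcript. Psma8, Psmb1, Psmb2, Psmb7, Psmc1, Psmc3, Psmd3 and Psmd7 were not matched. The antioxidant response element core TGACNNNGC, which is bound by Nfe2l1 and Nfe2l2, known regulators of proteasome genes, was present in 6 of 32 member promoters (18.8%) and in 12.5% of all 27025 promoters. Counting the base before the transcript start as -1, it began at -47 in Psmb5 (TGACGTCGC) and at -9 in Psmb6 (TGACGGAGC). The ETS site CCGGAAG was present in 11 of 32 (34.4%) against 9.13% of all promoters, and in Psmc6 it began at -100. Psmc6 also held the antioxidant response element core at -227, upstream of the stretch printed. The NF-Y box CCAAT was in 31.3% of member promoters and 37.9% of all. The interferon-stimulated response element core GAAANNGAA was in 18.8% and 8.58%. Psme1 held it on the reverse strand as TTCGCTTTC, beginning at base 11 of the transcript. The Psma5 and Psme2 windows held none of the 4. Each match is a description of letters and not of binding. No match overlapped a match to another motif in these 6 windows.

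FPKM is the number of reads per kilobase of transcript, scaled to the same number of tags in each library. Short transcripts stood higher against long ones in some libraries than in others, as given below. Levels of genes of different length are therefore set side by side only with that limit. The 2 series were normalised separately and are compared only within a table. In the alpha ring, Psma2 had the highest mean level over the single-IOP libraries. Its FPKM at 3 months was 113 and 288 in control and 216 and 198 in IOP eyes, and at 18 months 43.7 and 48.3 in control and 59.1 and 62.8 in IOP eyes. In the repeated series it was 61.7 and 52.0 in 4xIOP control and 57.0 and 92.8 in 4xIOP. The testis-specific alpha subunit Psma8 was the lowest, between 0.029 and 0.151 FPKM in all libraries, from 2 to 10 reads, and was not tested. The thymus-specific beta subunit Psmb11 was at 0 in 9 of 12 libraries and at no more than 2 reads in the rest, and was not tested either.

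Among the tested alpha subunits, Psma5 had the lowest mean level. At 3 months it measured 18.0 and 49.6 FPKM in control and 39.5 and 34.2 in IOP eyes, and at 18 months 6.24 and 5.88 in control and 7.99 and 10.5 in IOP eyes. In the repeated series it measured 12.1 and 9.60 in 4xIOP control and 11.2 and 19.1 in 4xIOP. The highest alpha subunit stood 4.86 to 8.72 times above the lowest in the same library, although each occurs at the same copy number in the assembled ring. These levels carry the length trend of their library. In 3mo IOP the highest was Psma2, with 936 bases, and the lowest Psma3, with 2385. In the beta ring the corresponding ratio was 2.21 to 3.88, and in the ATPase ring 1.45 to 2.85. In the ATPase ring it was at most 1.71 in the 18mo libraries and at least 1.89 in the 3mo libraries.

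Within the cap, Psmc6 was the ATPase with the highest mean level in the single-IOP series, and Psmc3 in the repeated series. The FPKM of Psmc6 at 3 months was 115 and 158 in control and 119 and 140 in IOP eyes, at 18 months 53.5 and 51.8 in control and 52.2 and 59.2 in IOP eyes, and 41.8 and 37.0 in 4xIOP control against 34.1 and 56.7 in 4xIOP. Psmc4 had the lowest mean of the ATPases in the single-IOP series and Psmc2 in the repeated series. Psmc4 measured 42.1 and 62.2, 66.5 and 49.0, 31.4 and 30.9, 37.0 and 39.4, 36.8 and 33.6, and 30.6 and 49.6 FPKM in the same order of groups. Both were lower in all 18mo libraries than in any 3mo library of the single-IOP series.

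Of the non-ATPase members in the single-IOP series, Psmd8 had the highest mean and Psmd10, an assembly chaperone also called gankyrin, the lowest. In the repeated series Psmd4, a ubiquitin receptor, was above Psmd8, with a mean over its libraries of 48.2 against 41.3 FPKM. Psmd8 at 3 months measured 95.5 and 154 FPKM in control and 139 and 116 in IOP eyes, at 18 months 49.6 and 51.5 in control and 55.6 and 62.5 in IOP eyes, and 41.5 and 41.0 in 4xIOP control against 34.5 and 48.1 in 4xIOP. Psmd10 measured 10.3 and 16.8, 15.6 and 13.2, 4.31 and 3.78, 5.34 and 5.61, 4.79 and 3.55, and 3.69 and 6.48 FPKM in the same order. For both, the 18mo libraries lay under all 3mo libraries of that series.

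**Figure D1:**
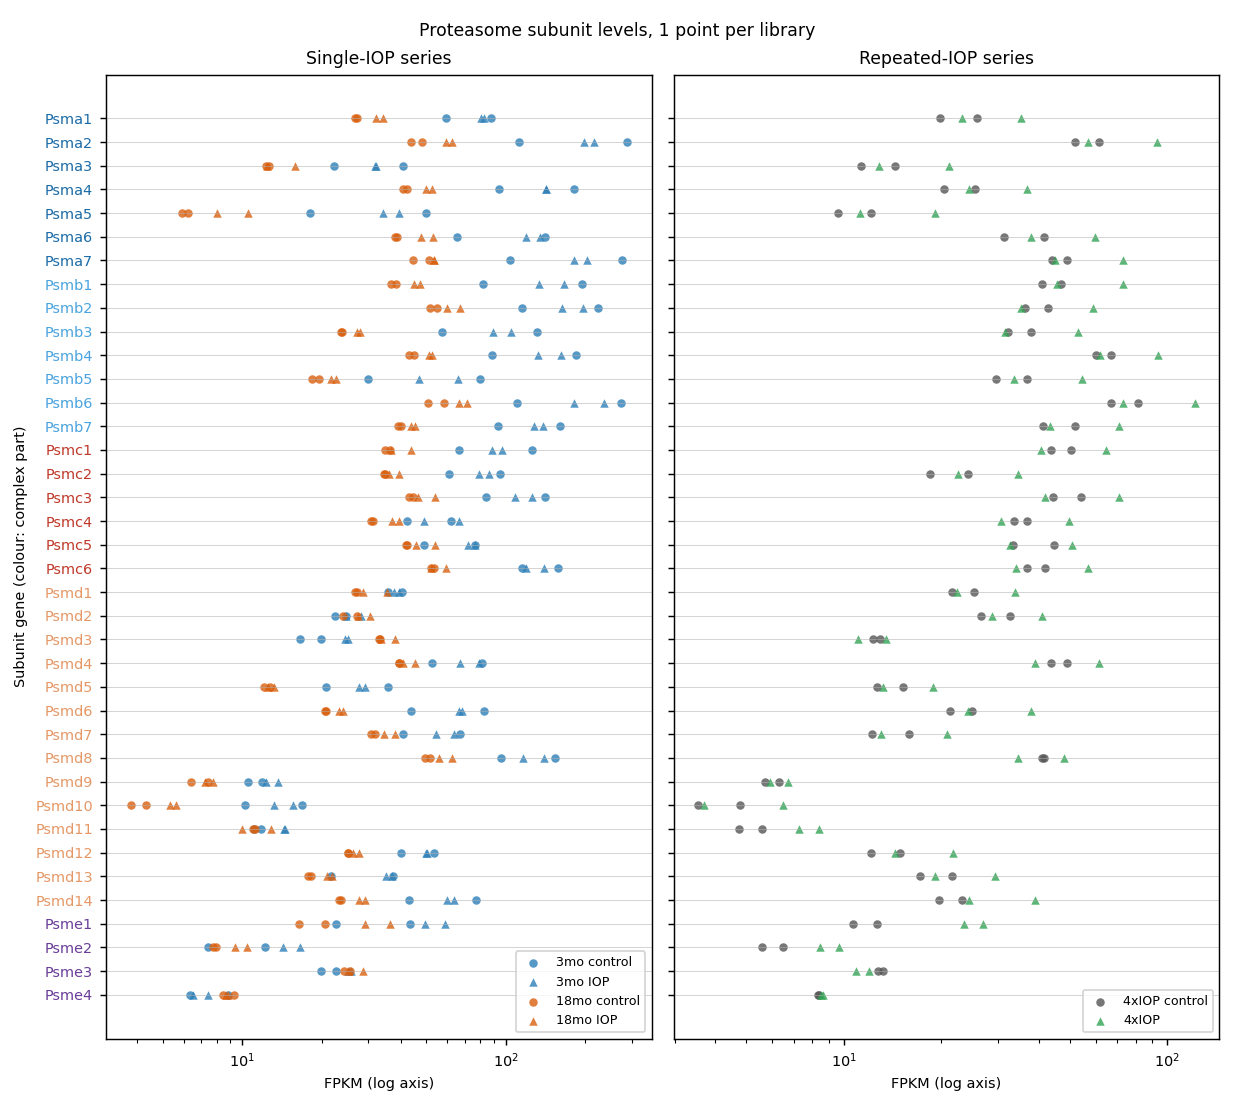
Level of each tested subunit in each library, as FPKM on a log axis, with the single-IOP series on the left and the repeated-IOP series on the right. Circles are control eyes and triangles IOP eyes, gene names are coloured by the part of the complex, and in the left panel the 18mo points of the 20S subunits, such as Psma5 at 5.88 to 10.5, lie to the left of the 3mo points at 18.0 to 49.6.

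The replicates of a group differed together across subunits. In 3mo control, 34 of 38 members were higher in replicate 2 than in replicate 1, with a median ratio of 1.70 and a range from 0.718 (Psme4) to 2.75 (Psma5). In 4xIOP, 37 of 38 were higher in replicate 2, with a median ratio of 1.57. The median ratio was 0.907 in 3mo IOP, 1.01 in 18mo control, 1.08 in 18mo IOP and 0.844 in 4xIOP control. Transcript length moved with these differences. Among coding transcripts, those under 1000 bases had a median FPKM that was 1.89 and 4.70 times that of transcripts of 4000 bases or more in 3mo control. This ratio was 3.26 and 2.99 in 3mo IOP, and at 18 months 1.28 and 1.21 in control and 1.20 and 1.36 in IOP eyes. It was 1.76 and 1.63 in 4xIOP control and 1.45 and 2.20 in 4xIOP. The sum of 5 blood genes also differed between replicates, at 3 months with 19.5 and 262 FPKM in control and 29.3 and 313 in IOP eyes, and with 166 and 426 in 18mo control, while it lay between 37.3 and 56.8 in the other 6 libraries. The part of blood in the replicate differences was not tested. The members are short, with a median of 1431 bases among the 38 tested against 2772 bases for all tested genes, and lengths from 723 (Psmb3) to 6393 bases (Psme4). Values with the length trend of each library removed are therefore given beside the values as deposited.

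The first question was whether the subunits differ with natural aging in eyes that were not stressed. Most subunits of the core particle were lower in the older eyes as deposited, and fewer were called once the length trend was removed (3 of 7 alpha and 0 of 7 beta subunits). In 18mo control against 3mo control, all 7 tested alpha subunits and all 7 tested beta subunits fell, with 4 of 6 ATPases (Psmc1, Psmc2, Psmc3 and Psmc6) and 5 of 14 non-ATPase members (Psmd5, Psmd6, Psmd8, Psmd10 and Psmd14, the deubiquitinase of the cap). None of the 4 activators was called, and no member rose by the full criterion. Calls needed a limma p, adjusted by Benjamini-Hochberg over 13731 genes, no higher than 0.05, and a log2 fold change beyond 1 in either direction.

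In numbers, 23 of 38 members were called lower and 0 higher, where 11.6% of all tested genes were called lower and 11.6% higher. By the adjusted p alone, 29 were lower and 1 was higher, beside 45.9% of all genes passing in either direction. The groups did not overlap, with both 18mo libraries lower, for 32 members, beside 32.8% of all genes. The median log2 fold change of the members was -1.27, with a range from -2.22 to 0.86, and that of all tested genes was 0.16. After scaling by median-of-ratios size factors, 24 members were called lower, and 1959 of the 3015 genes called were lower against 1590 of 3185 as deposited. By part, the median was -1.65 for the alpha ring, -1.62 for the beta ring, -1.21 for the ATPases, -0.73 for the non-ATPase members and -0.02 for the activators.

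The largest fall was that of Psma5, whose 18mo control libraries, at 6.24 and 5.88 FPKM, lay below both 3mo control libraries, at 18.0 and 49.6. Its log2 fold change was -2.22 (SE 0.40, adjusted p = 0.00684). Psma2 followed with -1.96 (SE 0.38, adjusted p = 0.00782) and no overlap between the groups. Psmb3, a structural subunit of the beta ring, measured 57.5 and 131 FPKM in 3mo control and 23.8 and 23.8 in 18mo control, a log2 fold change of -1.85 (SE 0.34, adjusted p = 0.0070). The 3mo control libraries differed from each other by more than the 18mo control libraries did, in all 3 genes.

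All 3 catalytic subunits fell. Psmb5, which carries the chymotrypsin-like site, measured 30.0 and 79.9 FPKM in 3mo control and 18.4 and 19.6 in 18mo control, a log2 fold change of -1.35 (SE 0.40, adjusted p = 0.0267). Psmb6, with the caspase-like site, measured 110.1 and 273 against 58.1 and 50.7 FPKM, a log2 fold change of -1.67 (SE 0.38, adjusted p = 0.0118). Psmb7, with the trypsin-like site, measured 93.5 and 160.3 against 40.1 and 38.9 FPKM, a log2 fold change of -1.62 (SE 0.25, adjusted p = 0.00562). All 3 were lower in both 18mo control libraries than in either 3mo control library.

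A few members went the other way. Psmd3, a scaffold subunit of the lid of the cap, measured 19.9 and 16.5 FPKM in 3mo control and 33.0 and 33.3 in 18mo control. It was higher without overlap, by a log2 fold change of 0.86 (SE 0.17, adjusted p = 0.0081), and so passed the adjusted p but not the fold. Psme3, a nuclear activator, measured 22.7 and 19.9 against 24.3 and 25.6 FPKM (log2 fold change 0.23, adjusted p = 0.27). Psme4, the activator also known as PA200, measured 8.86 and 6.36 against 9.33 and 8.48 FPKM, with overlapping groups (0.23, adjusted p = 0.348, and -0.19 with the length trend removed). The other 6 members that passed the adjusted p alone were Psmc4, Psmd1, Psmd4, Psmd7, Psmd9 and Psmd12, all lower.

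The activators Psme1 and Psme2, which together form the PA28 cap, were not called with age. Psme1 measured 22.7 and 43.1 FPKM in 3mo control and 16.4 and 20.7 in 18mo control (log2 fold change -0.75, SE 0.30, adjusted p = 0.0701). Psme2 measured 7.43 and 12.2 against 7.94 and 7.74 FPKM (-0.27, SE 0.23, adjusted p = 0.367). The Psme1 groups did not overlap and the Psme2 groups did. With the length trend removed both signs turned, to 0.05 for Psme1 (adjusted p = 0.827) and 0.66 for Psme2 (adjusted p = 0.0060). Psme2 has a near-identical copy, Psme2b, in the tables, so its values are uncertain.

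The IOP eyes give the same age comparison in other libraries, fitted in the same model. The control eyes are contralateral eyes of treated animals, and the fit uses the same estimate of each gene's spread in both comparisons. The IOP eyes are therefore not an independent repeat. In 18mo IOP against 3mo IOP, 23 of 38 members were called lower and 0 higher, and all 23 were the genes called in the control eyes. Of all tested genes, 11.6% were called lower and 10.2% higher. By the adjusted p alone 28 were lower and 1 higher, beside 42.6% of all genes in either direction, and 34 were lower without overlap, beside 34.5% of all genes. The median log2 fold change of the members was -1.14 and that of all tested genes 0.09.

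The largest falls were again in the 20S core. Psma5 fell by 1.94 on the log2 scale (SE 0.40, adjusted p = 0.00996). Psma7, at 204 and 181 FPKM in 3mo IOP and 53.3 and 53.6 in 18mo IOP, fell by 1.84 (SE 0.39, adjusted p = 0.0112). Psmb3, at 105 and 89.8 against 27.2 and 27.9 FPKM, fell by 1.80 (SE 0.34, adjusted p = 0.00801). In all 3 genes both 18mo IOP libraries lay far under both 3mo IOP libraries.

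The members with the highest values were Psmd3, Psme4 and Psmd2. Psmd3 measured 24.5 and 25.1 FPKM in 3mo IOP and 33.5 and 38.0 in 18mo IOP (log2 fold change 0.52, adjusted p = 0.0391). Psme4 measured 6.50 and 7.39 against 8.68 and 8.86 FPKM (0.32, adjusted p = 0.208, and -0.17 with the length trend removed), and Psmd2, a scaffold of the base of the cap, 28.1 and 24.8 against 27.4 and 30.6 FPKM (0.13, adjusted p = 0.548, and -0.0115 with the length trend removed). The groups did not overlap for Psmd3 and Psme4 and overlapped for Psmd2.

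The age difference moved with transcript length among the members. Across the 38 members, Spearman's rho between transcript length and the age difference in control eyes was 0.67, and 0.68 in IOP eyes, against 0.41 and 0.46 over all tested genes. These are descriptions across genes, which share the same libraries. In control eyes the 10 members under 1000 bases had a median log2 fold change of -1.56, where the 1471 other genes of that length had -0.87. The 12 members from 1000 to 1500 bases had -1.46 against -0.40 for other genes, the 9 from 1500 to 2000 bases -1.10 against -0.07, and the 7 of 2000 bases or more 0.12 against 0.36. The median of the members was thus lower in each class, a difference that was not tested, and single members lay above the other genes' median, such as Psme2 at -0.27 among the shortest and Psmd3 at 0.86 among the longest. Among the 7 long members only Psma3, at 2385 bases, was called. It measured 22.2 and 40.7 FPKM in 3mo control and 12.6 and 12.3 in 18mo control.

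**Figure D2:**
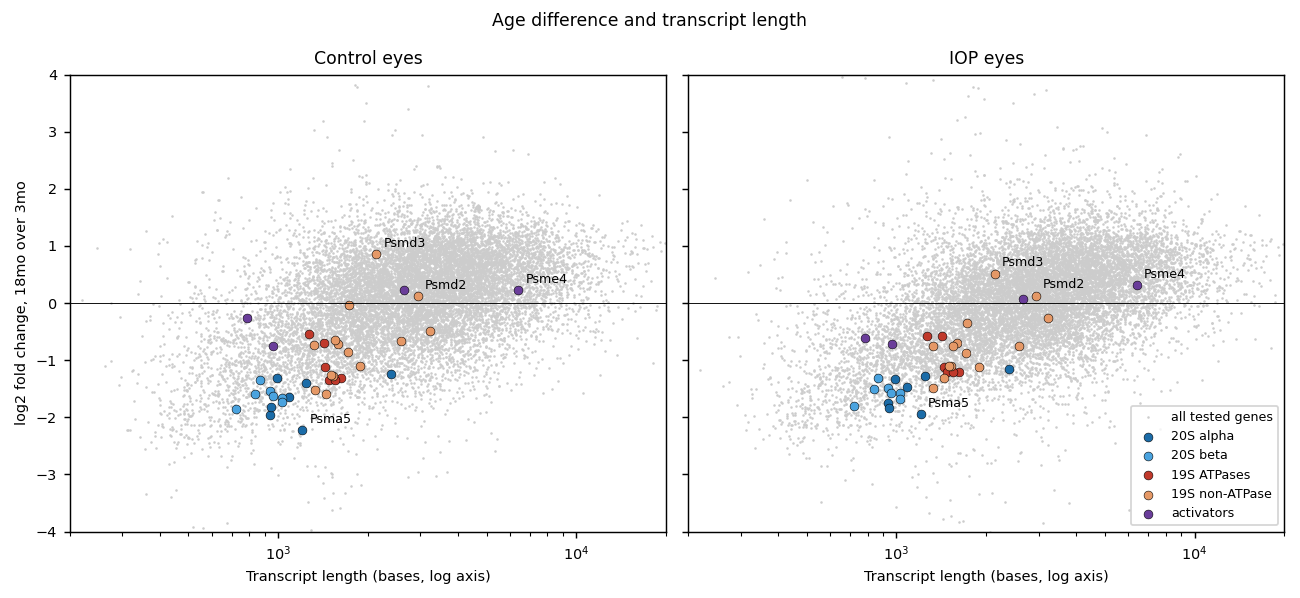
The log2 fold change of 18mo over 3mo against transcript length in bases (log axis), for control eyes on the left and IOP eyes on the right, with all tested genes in grey and the members coloured by the part of the complex. Genes outside 4 on the log2 scale are not drawn. The members run from Psma5 at -2.22 in control eyes to Psmd3 at 0.86, and most short ones lie low among genes of their own length, with Psme2 at -0.27 an exception.

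When each library's length trend was removed, 8 of 38 members were still called lower in control eyes, namely Psma2, Psma3, Psma5, Psmc3, Psmc6, Psmd5, Psmd6 and Psmd10, beside 7.76% of all tested genes. The median of the members was -0.76 and that of all genes 0.10. By the adjusted p alone 26 were lower and 2 higher, where 2848 of all 13731 genes were lower and 3503 higher. In IOP eyes 3 were still called, Psma3, Psma5 and Psmd5, beside 7.09% of all genes, with a median of -0.68 against 0.03. The log2 fold change of Psma5 became -1.61 in control eyes (adjusted p = 0.00351) and that of Psma3 -1.35 (adjusted p = 0.00575). The beta ring had a median of -0.82 with 0 of 7 called and 6 of 7 past the adjusted p. Psmb5 was the exception, at -0.47 (adjusted p = 0.0988). Psmd3 stayed at 0.81 (adjusted p = 0.00405).

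**Figure D3:**
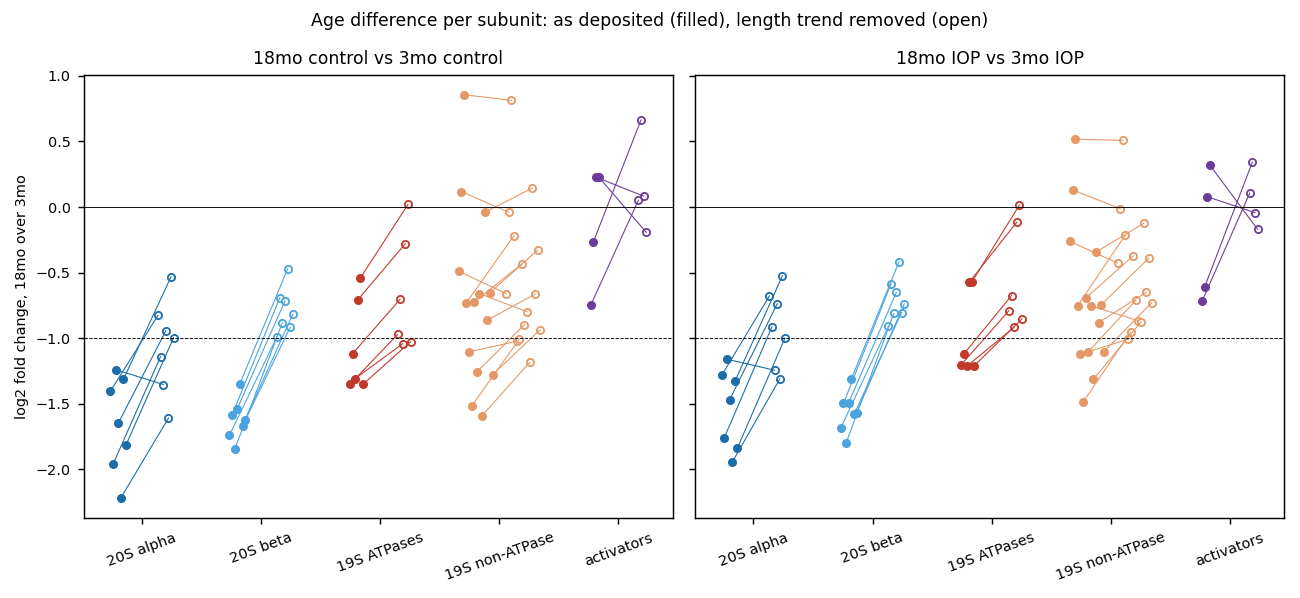
The log2 fold change of 18mo over 3mo for each tested member, by part of the complex, as deposited (filled) and after removal of each library's length trend (open), in control and IOP eyes. Lines join the same gene and the dashed line marks -1. Most 20S subunits move up towards 0 and stay below it, such as Psmb5 from -1.35 to -0.47 in control eyes, while Psma3 moves from -1.24 to -1.35.

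The age counts also depended on single libraries. In control eyes the number of members called lower was 28 and 14 when replicates 1 and 2 of 3mo control were left out, and 11 and 9 when those of 18mo control were. Of all genes, 15.2%, 5.67%, 5.75% and 4.12% were called lower in these settings. In IOP eyes the members' number was 1 without 3mo IOP replicate 1 (Psmc6), 2 without 3mo IOP replicate 2 (Psmb7 and Psmd10), and 16 and 19 without 18mo IOP replicate 1 and 2, beside 1.94%, 2.34%, 10.5% and 8.32% of all genes called lower. The share of members, as of all genes, was thus small without either 3mo IOP library.

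Markers of retinal cell types differed with age in the same libraries. The summed FPKM of 10 retinal ganglion cell genes was 373 and 706 in 3mo control and 41.4 and 94.3 in 18mo control, and that of 8 retinal pigment epithelium genes 186 and 208 against 10.7 and 3.46. The rod sum was 27206 and 31214 against 21432 and 19017, the Muller glia sum of 8 genes 694 and 898 against 1889 and 1619, and the microglia and leukocyte sum of 10 genes 16.2 and 31.5 against 57.5 and 64.6. No gene of these lists was at 0 in all libraries. The part of these cell types, and of the length trend, in the age difference of the subunits was not tested. In bulk retina, fewer cells of a type and less RNA per cell cannot be told apart.

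Other genes of the ubiquitin and proteasome pathway were listed by function. Of 21 tested assembly, inhibitor and associated factors, 8 fell with age in control eyes and 0 rose by the full criterion, beside 11.6% of all genes in each direction. With the length trend removed, 3 were called lower (Sem1, Txnl1 and Usp14), beside 7.76% of all genes, and 1 higher (Adrm1, the ubiquitin receptor Rpn13, at 1.01), while Pomp (-0.92) and the Psmg genes were no longer called. As deposited, the log2 fold changes of the 8 included those of the assembly chaperones Pomp (-1.88), Psmg1 (-1.40), Psmg3 (-1.28), Psmg4 (-1.86) and Psmg2, and Sem1 (-2.12), a small subunit of the lid whose symbol lies outside the rule. The deubiquitinase Usp14 (-1.02) and the cap-bound thioredoxin Txnl1 (-1.04) were called too. Of 4 regulators of proteasome genes, Ngly1 fell (-1.16, adjusted p = 0.00496) and Ddi2 rose (1.02, adjusted p = 0.0151), both known to process Nfe2l1. With the length trend removed Ddi2 was at 0.82 and not called, and Ngly1 was at -1.27 and called. Nfe2l1 itself passed the adjusted p only (0.70, adjusted p = 0.0287), and Nfe2l2 did not pass (-0.59, adjusted p = 0.0514). Among the ubiquitin genes, Rps27a, which encodes a ubiquitin fused to a ribosomal protein, fell as deposited (-1.57, adjusted p = 0.0155). Its transcript has only 718 bases, and the 1471 genes under 1000 bases outside the members had a median of -0.87 in control eyes. The part of length in the fall of Rps27a was not tested.

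The next question was whether a single mild IOP elevation changed the subunits 2 days later. In 3mo IOP against 3mo control, 0 of 38 members were called by limma, beside 0.575% of all tested genes. An unadjusted p under 0.05 was held by 3 members, beside 1169 of all 13731 genes. Groups did not overlap, with IOP eyes higher, for 6 members (Psmd3, Psmd9, Psmd11, Psme1, Psme2 and Psme3), beside 28.6% of all genes. With median-of-ratios size factors 2 members were higher and 2 lower without overlap, beside 14.9% and 17.1% of all genes, and with the length trend removed 11 were higher, beside 38.3%. The median log2 fold change was 0.16 for the members and 0.13 for all genes. For 29 of the 38 members the 95% interval lay under 1, and for all 38 it lay above -1.

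The highest values were those of the PA28 subunits. Psme1 was higher in both 3mo IOP libraries, at 58.7 and 49.4 FPKM, than in 3mo control, at 22.7 and 43.1 (log2 fold change 0.77, 95% interval 0.08 to 1.46, adjusted p = 0.49). Psme2 measured 16.6 and 14.2 FPKM against 7.43 and 12.2 (0.66, interval 0.13 to 1.19, adjusted p = 0.404), and Psmd3 24.5 and 25.1 against 19.9 and 16.5 (0.44, adjusted p = 0.471). The lowest values were those of Psme4 (-0.11, adjusted p = 0.997) and Psmc6 (-0.06, adjusted p = 0.999), and no other member was below 0. Without 3mo control replicate 2, Psme1 (1.23, adjusted p = 0.0453) and Psma5 (1.01, adjusted p = 0.0498) were called, as were 257 of all 13731 genes against 79 with all libraries, and the median of the members was 0.51. The lone control library is then assumed to vary like the other groups. Without 3mo control replicate 1 that median was -0.25.

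In 18mo IOP against 18mo control, again 0 of 38 members were called by limma, beside 0.124% of all tested genes. An unadjusted p under 0.05 was held by 1 member (Psme1), beside 1297 of all 13731 genes. Of the 38, 31 were higher in both IOP libraries than in either control library, beside 36.5% of all genes, and none was lower without overlap. That count was 17 after scaling by median-of-ratios size factors, beside 21.8% of all genes, and 26 after removal of the length trend, beside 36.2%. The median log2 fold change was 0.21 for the members and 0.09 for all genes.

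The members that were not apart in this way were Psma3, Psmc6, Psmd5, Psmd9, Psmd11, Psme3 and Psme4. Psme1 stood highest, at 36.3 and 29.2 FPKM in 18mo IOP against 16.4 and 20.7 in 18mo control (0.80, interval 0.12 to 1.49, adjusted p = 0.397). Psma5 (0.56, adjusted p = 0.906) and Psma2 (0.40, adjusted p = 0.974) followed. Psme4, at 8.68 and 8.86 against 9.33 and 8.48 FPKM, was the only member below 0 (-0.02, adjusted p = 0.999). The 2 IOP comparisons have no library in common, and the test of their difference is the interaction term. It called 0 of 38 members, beside 0.0% of all genes by the adjusted p. An unadjusted p under 0.05 was held by 0 members, beside 218 of all 13731 genes.

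The interaction was lowest for Psme2 (-0.34), Psmd3 (-0.34) and Psmd11 (-0.30) and highest for Psmd10 (0.28), Psma5 (0.27) and Psmd1 (0.23), as the IOP effect at 18 months minus that at 3 months on the log2 scale. Psmd11, a lid subunit, measured 11.1 and 11.7 FPKM in control and 14.5 and 14.6 in IOP eyes at 3 months, and 11.0 and 11.2 in control and 9.98 and 12.9 in IOP eyes at 18 months. Psmd1, a scaffold of the base, measured 35.9 and 40.5, 39.2 and 37.5, 27.3 and 26.8, and 28.7 and 35.5 FPKM in the same order. The standard error was 0.33 for Psme2 and 0.57 for Psma5.

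The last question was whether repeated elevation in young animals changed the subunits. In 4xIOP against 4xIOP control, 1 of 38 members was called, beside 6.15% of all tested genes. An unadjusted p under 0.05 was held by 3 members (Psme1, Psme2 and Psmd11), beside 2119 of all 13718 genes. The member called was Psme1, at 23.6 and 27.0 FPKM in 4xIOP and 12.7 and 10.7 in its control, with no overlap. Its log2 fold change was 1.08 (SE 0.24, 95% interval 0.57 to 1.60, adjusted p = 0.0113). The value stayed between 0.95 and 1.21 under the alternatives tried. The adjusted p lay between 0.00619 and 0.684, and at 5.67e-05 with a block of crossed replicate numbers, which was added after seeing the data. With a median-of-ratios scaling (0.97), the length trend removed (0.95) or voom (log2 fold change 0.997) it passed the adjusted p and not the fold. It was not called with no filter on low values (adjusted p = 0.186), or without 4xIOP control replicate 1 (adjusted p = 0.257), 4xIOP control replicate 2 (0.684) or 4xIOP replicate 2 (0.0522). Psme1 overlaps Emc9 on the opposite strand, and the counting used strand.

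Higher without overlap were 5 members, Psmd11, Psmd14, Psme1, Psme2 and Psme4, beside 27.7% of all genes, and Psme3 was lower without overlap. Psme2 measured 8.47 and 9.66 FPKM in 4xIOP against 6.48 and 5.61 (0.55, adjusted p = 0.18), and Psmd11 7.26 and 8.41 against 5.57 and 4.73 (0.56, adjusted p = 0.157). Psme3 measured 10.9 and 11.9 against 12.7 and 13.3 FPKM (-0.18, adjusted p = 0.879). Psme4 measured 8.53 and 8.64 against 8.32 and 8.36 FPKM (0.04, adjusted p = 0.979). The members' median was 0.26 and that of all genes 0.10. It was 0.59 without 4xIOP replicate 1 and -0.02 without 4xIOP replicate 2, the library in which 37 members were higher.

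**Figure D4:**
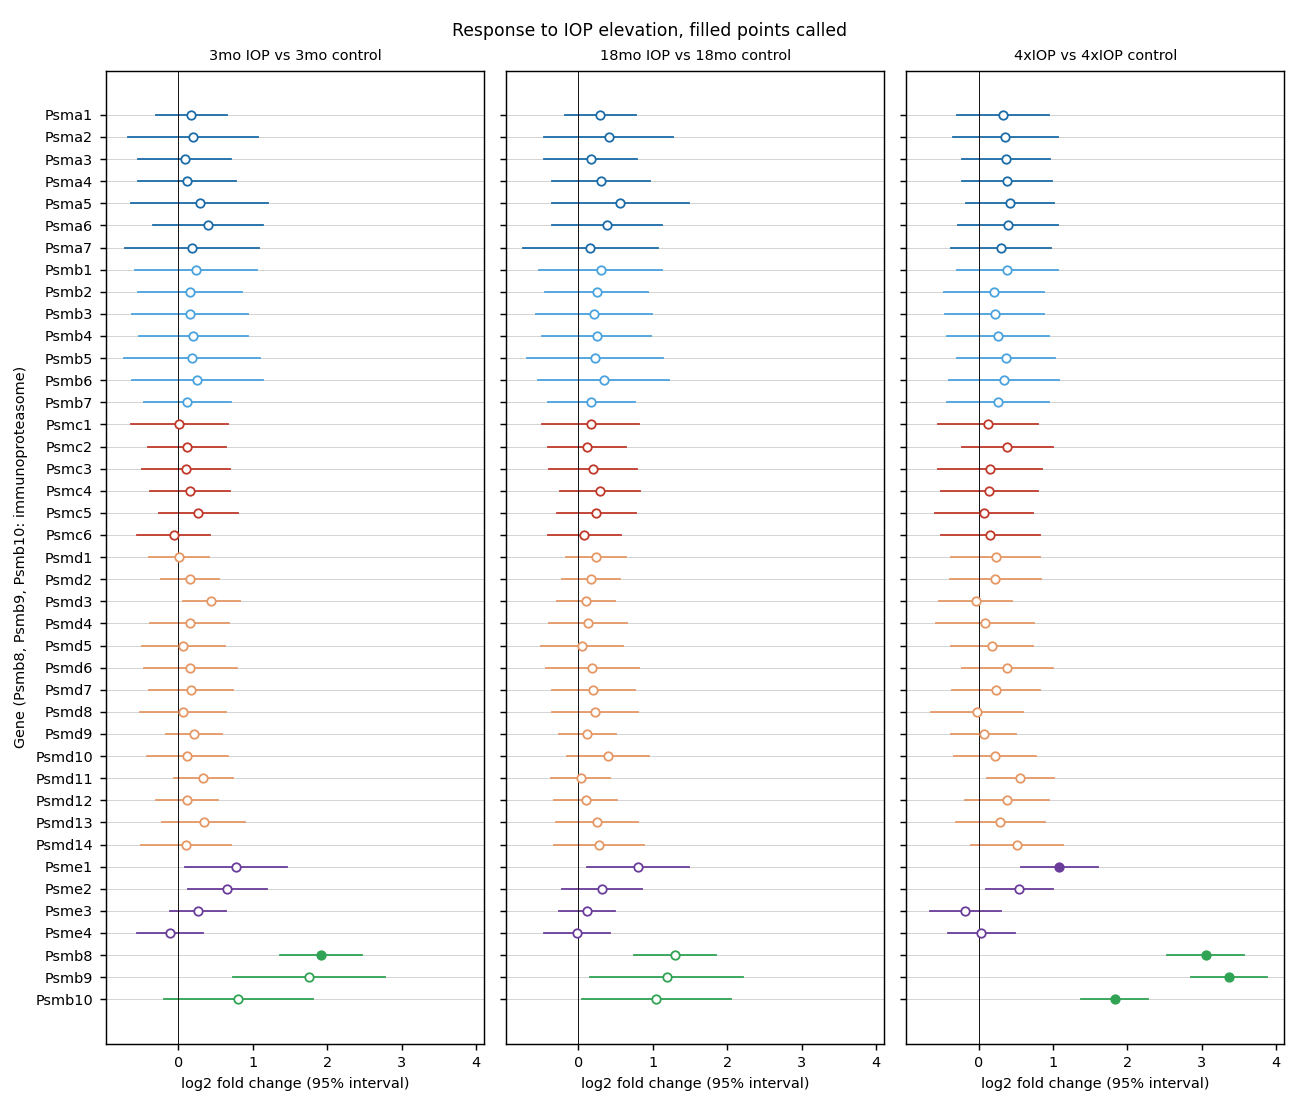
The log2 fold change of IOP over control eyes with its 95% interval for each tested member and for Psmb8, Psmb9 and Psmb10 (green), in the 3 IOP comparisons, with filled points for genes that were called. Among the members only Psme1 in 4xIOP, at 1.08, is filled, while Psmb8 is filled in 3mo IOP (1.92) and all 3 immunoproteasome genes in 4xIOP (3.05, 3.37 and 1.83).

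The immunoproteasome counterparts, which are not members, had larger log2 fold changes in 4xIOP than the constitutive subunits they replace, although this difference was not tested. In 4xIOP, Psmb8 rose from 1.10 and 1.77 FPKM to 18.1 and 12.9, a log2 fold change of 3.05 (adjusted p = 2.72e-06). Psmb9 rose from 0.756 and 0.533 to 14.2 and 8.89 FPKM (3.37, adjusted p = 1.09e-06), and Psmb10 from 4.21 and 3.66 to 15.0 and 15.5 FPKM (1.83, adjusted p = 6.09e-05). The replaced subunits Psmb5 (0.37), Psmb6 (0.35) and Psmb7 (0.26) had adjusted p-values of 0.753 or more there, with 36.7 and 29.6 FPKM for Psmb5, 81.3 and 67.0 for Psmb6 and 51.8 and 41.4 for Psmb7 in the control, and 33.5 and 54.5, 72.8 and 121, and 43.5 and 71.0 in 4xIOP.

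After a single elevation Psmb8 rose at 3 months, from 1.23 and 2.24 to 8.23 and 7.27 FPKM (1.92, adjusted p = 0.0293). This call was lost without 3mo control replicate 1 or without 3mo IOP replicate 1. Each setting leaves a single library in a group and fewer degrees of freedom. The loss therefore cannot show whether the Psmb8 value rests on the library left out. At 18 months it measured 3.15 and 3.13 against 7.69 and 9.26 FPKM (1.30, adjusted p = 0.101), and it was called there with the length trend removed (1.21, adjusted p = 0.0350). Psmb9 had log2 fold changes of 1.76 (adjusted p = 0.18) and 1.19 (adjusted p = 0.402), and Psmb10 of 0.81 (adjusted p = 0.74) and 1.04 (adjusted p = 0.492), at 3 and 18 months. Psmb9 was higher without overlap at both ages, and Psmb10 at 18 months. With age in control eyes the log2 fold change was 0.74 for Psmb8 (adjusted p = 0.0354), 0.33 for Psmb9 (adjusted p = 0.567) and -1.12 for Psmb10 (adjusted p = 0.0641), and in IOP eyes that of Psmb8 was 0.12, or 0.75 with the length trend removed (adjusted p = 0.00879). With the length trend removed, Psmb8 (1.34) and Psmb9 (1.25) were called higher in control eyes and Psmb10 (-0.56) was not called.

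The balance within each pair can be given as the share of Psmb8 in the summed FPKM of Psmb5 and Psmb8. At 3 months it was 3.93% and 2.73% in control and 11.1% and 13.4% in IOP eyes, and at 18 months 14.6% and 13.8% in control and 26.2% and 29.0% in IOP eyes. In the repeated-IOP series it was 2.90% and 5.64% in the control and 35.1% and 19.1% in 4xIOP. The groups of each IOP comparison and of each age comparison did not overlap. The share of Psmb9 in the Psmb6 pair was 0.627% and 0.573%, 2.84% and 1.80%, 2.31% and 3.02%, and 3.71% and 7.85% in the 4 single-IOP groups, and 0.921% and 0.789% against 16.3% and 6.82% in the repeated series. The share of Psmb10 in the Psmb7 pair was 4.13% and 7.29%, 9.98% and 7.91%, 7.13% and 7.17%, 11.9% and 14.7%, 7.52% and 8.12%, and 25.7% and 17.9% in the same order. These shares are descriptions without a test.

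**Figure D5:**
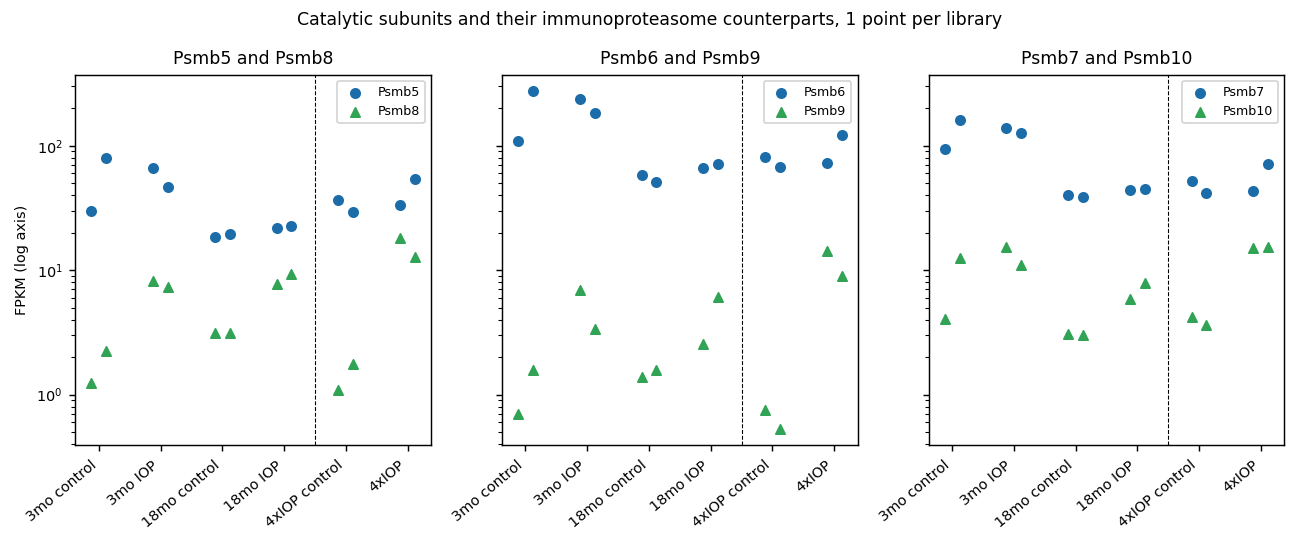
FPKM on a log axis of each catalytic subunit (circles) and of its immunoproteasome counterpart (triangles) in each library, with a dashed line between the separately made tables. In the repeated-IOP series the triangles of Psmb8 lie at 1.10 and 1.77 in the control and at 18.1 and 12.9 in 4xIOP, while the circles of Psmb5 overlap.

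Markers of microglia and leukocytes were higher in the IOP eyes of every IOP comparison. Their summed FPKM over 10 genes was 16.2 and 31.5 in 3mo control and 84.8 and 52.2 in 3mo IOP, 57.5 and 64.6 in 18mo control and 177 and 100.1 in 18mo IOP, and 9.10 and 8.58 in 4xIOP control and 166 and 134 in 4xIOP. The groups did not overlap in any of the 3. The sum of 8 lens genes was 4.72 and 0.774 in 4xIOP control and 48.5 and 111 in 4xIOP. It was also higher in 18mo IOP, at 6.44 and 20.8 against 3.24 and 4.61, and overlapped at 3 months. In the repeated series the rod sum was lower in 4xIOP, at 6057 and 9242 against 12920 and 13537, as was the pigment epithelium sum, at 3.68 and 7.18 against 28.9 and 39.3. At 18 months the Muller glia sum was higher in IOP eyes, at 2858 and 3246 against 1889 and 1619, and the rod sum lower, at 14429 and 17055 against 21432 and 19017. The Muller glia sum was also higher in 3mo IOP, at 1331 and 920 against 694 and 898, and the groups overlapped in 4xIOP. Leukocytes are known to express Psme1, Psme2 and the immunoproteasome subunits, and the part of these cells in the values was not tested.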

How the data were processed

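Polyadenylated RNA of whole retinas was sequenced as strand-specific libraries. Per the study's methods and the submitters' processing notes, the authors aligned reads to mm10 with STAR (2.7.8a) and counted uniquely mapped tags in exons of a single isoform per locus, by strand, with HOMER. The deposited values are FPKM, in a separate table for each series, and replicates were not pooled. The authors ran DESeq2 for their own tests (the notes list DESeq 1.24.0). FPKM times transcript length gave whole reads for 100% of the values checked, within 0.1 of a read, which returned the number of tags of each library. Limits from reads cover counting error only.

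Tested were genes whose mean over a table's libraries reached 0.5 FPKM. The values log2(FPKM + 0.5) were fitted with limma 3.58.1 in R 4.3.3 (lmFit, eBayes with trend), the 8 single-IOP libraries as 4 groups and the 4 repeated-IOP libraries alone. All p-values are two-sided. Fold changes are on this log2 scale, which understates low genes. Adjustment was over all tested genes. In the length-removed values, a natural spline with 5 degrees of freedom of log2 length was subtracted in each library.

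Every member was accounted for. Named with values were catalytic subunits and counterparts, activators, the highest and lowest of each subunit group, members under the filter, and in each comparison those called or, where none or more than 6 were called, the 3 with the largest rise and the 3 with the largest fall. Some of these genes are given for part of the libraries only. Psme4 and Psmc6 were the only members with a fall in 3mo IOP and Psme4 in 18mo IOP. The members and lists were chosen with earlier results of these data known. The steps were tested on simulated data. Psmb5 overlaps the microRNA gene Mir686 on the same strand, so its reads could be shared, while Psma4, Psmd1 (Htr2b) and Psme1 (Emc9) overlap protein-coding genes on the opposite strand. The genome also holds pseudogenes of Psmb5, Psmb6 and Psmb7, and only uniquely mapped tags were counted.

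Alternatives were another pseudocount, no filter, a higher filter, median-of-ratios scaling, removal of the length trend, voom on recovered reads, a replicate block and leaving out each library. One gene of the pathway lists is not reported here.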

Additional observations from a re-analysis of the deposited data

How the results depend on the processing

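The count of members called lower with age in control eyes was 23 and in IOP eyes 23. With no filter on low values it was 10 and 5, and with the length trend removed 8 and 3. Leaving out libraries gave 9 to 28 in control eyes and 1 to 19 in IOP eyes, each from the libraries compared. The median relative to all genes was -1.42 and -1.23. It was -0.86 and -0.71 with the length trend removed and -1.12 in IOP eyes with no filter, and without single libraries it ranged from -1.85 to -0.91 and from -1.33 to -1.15. In 4xIOP the single call, Psme1, became 0 with no filter, median-of-ratios size factors, the length trend removed and voom, and 0 to 1 without single libraries. In 3mo IOP, 0 to 2 members were called without single libraries, and the relative median ranged from -0.43 to 0.40. In 18mo IOP that median was 0.12, 0.20 with no filter, 0.0492 with the length trend removed and 0.0366 to 0.16 without single libraries. For the interaction it ranged from -0.33 to 0.53. The 31 members higher without overlap at 18 months became 17 with median-of-ratios size factors, a setting added after seeing the data. The cause of these shifts was not tested, except that fewer libraries leave fewer degrees of freedom.

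Among the values named by rule in each comparison, signs reversed as follows, beside Psme1 and Psme2 with age in control eyes, given above. With the length trend removed, Psme4 became -0.19 with age in control eyes, -0.17 with age in IOP eyes, 0.0345 in 3mo IOP and 0.0578 in 18mo IOP, and Psmd2 became -0.0115 with age in IOP eyes. Without single libraries, Psme4 ranged from -0.33 to 0.12 in 3mo IOP and from -0.0851 to 0.0459 in 18mo IOP, Psmc6 from -0.29 to 0.16 in 3mo IOP, and in the interaction Psma5 from -0.44 to 0.99 and Psmd10 from -0.0649 to 0.62. Of 332 alternative values for single genes, 298 kept their direction and their side of the threshold. Median-of-ratios scaling moved the median of all genes with age in control eyes from 0.16 to 0.01 and called 24 members.

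Whether libraries with the same replicate number share an animal is not stated. Their deviations correlated at -0.28 at 3 months, -0.53 at 18 months and -0.29 in the repeated series, and with 2 libraries per group the crossed pairing has the same values with the opposite sign (0.28, 0.53 and 0.29), so the numbers were not used as pairs and the sign does not show which libraries belong together. A replicate block called 23, 23, 0, 0, 0 and 1 members in the age comparisons of control and IOP eyes, 3mo IOP, 18mo IOP, the interaction and 4xIOP. With the numbers crossed, added after seeing the data, the IOP comparisons, the interaction and 4xIOP had 0, 0, 0 and 1. With 2 libraries per group, changes smaller than the intervals given cannot be resolved.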
